A study of Mus musculus with 9 samples.

Results

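Abdominal aorta carrying an aneurysm, induced by calcium phosphate (CaPO4) was compared with control abdominal aorta on 6 of the 9 arrays of the series, 3 CaPO4 arrays and 3 control arrays, chosen by their labels. All mice were male, the controls were labelled wild type with the treatment given as control, and the labels gave CaPO4 as the treatment of the aneurysm group. Strain, age and the time after CaPO4 are not given in the sources used here. The series text states that 5 aortas per group were mixed, and nothing says whether the 3 arrays of a group held separate pools, so the p-values measure only the spread between these arrays, which may be technical. The other 3 arrays, from aneurysm mice given naringenin, entered the shared estimate of spread and the filter that chose which probes were tested.

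Contact of the outer arterial wall with calcium phosphate crystals is a way to induce aneurysm in mice. An aneurysm is a lasting widening of the vessel, known for loss of elastic fibres and of smooth muscle cells, for invading leukocytes and for calcification. Long intergenic noncoding RNAs (lincRNAs) are transcripts from between protein-coding genes, and ultraconserved elements (uc.) are stretches of DNA that are identical in human, mouse and rat, some of which are transcribed. A cDNA clone is a sequenced copy of a transcript that may not belong to a named gene. Probes of these kinds and of RefSeq genes carried names and are described here. A further 51842 of the 59709 probes carried only a design number and were used in the fit and as background.

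Each value is a level, the log2 of a probe's background-subtracted intensity over the 75th percentile of its array, so that 0 is that percentile and 1 unit is a doubling. Of all probes, 57.0, 51.0 and 52.4% were well above background (brighter than the local background by the scanner software's criterion) on control 1 to 3, and 40.2, 56.7 and 37.1% on CaPO4 1 to 3. Over 18743 probes measured on all arrays, the controls correlated with each other at r = 0.985 to 0.990, and CaPO4 1 with CaPO4 3 at 0.994. CaPO4 2 stood apart from its group, with r = 0.821 and 0.828 to CaPO4 1 and 3, against 0.972 to each of naringenin 1 and 2. It was thus closer to arrays of another group than to its own, its label may be wrong, and CaPO4 2 stands throughout for the array so labelled. CaPO4 2 still differed over 2-fold from naringenin 1 and 2 for 10.1 and 10.2% of these probes. Between naringenin 1 and 2 the share was 0.39%. Naringenin 3 stood apart from its group too, at r = 0.945 and 0.948 to naringenin 1 and 2. For bright probes, the median absolute deviation of the difference was 0.147 between control 1 and 2 and 0.0989 between CaPO4 1 and 3. Spots of 1 probe repeated on the same array gave an expected 0.147 and 0.0796, so these arrays differed by little more than such spots do. When control 1 and 2, CaPO4 1 and 3, and naringenin 1 and 2 were each averaged to 1 sample, limma called 0 probes, with a lowest adjusted p of 0.0862 and 9003 probes at an unadjusted p under 0.05. The controls shared 1 scan identifier, the CaPO4 arrays shared another with naringenin 1 and 2, and naringenin 3 had its own. The scan can thus not be told apart from the treatment. No smooth muscle, endothelial, fibroblast, macrophage, T cell, B cell, adipocyte or nerve marker of the lists used was among the named probes, so the labelled tissue could not be checked against its markers.

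CaPO4 aorta differed from control aorta in a large share of all probes. With limma and Benjamini-Hochberg adjustment (a probe is called if its adjusted p is below 0.05), 8015 of 37307 probes tested were called (21.5%), 4025 higher (10.8%) and 3990 lower (10.7%). Without CaPO4 2 the count was 11638 (31.2%), with 5553 higher (14.9%) and 6085 lower (16.3%). A total of 7474 (20%) were called in the same direction both ways, and 0 were called in opposite directions. The groups did not overlap for 18180 probes (48.7%), which were higher in CaPO4 for 24.3% and lower for 24.5% of the probes tested. The count of called probes was 2918, 2751 and 3551 without control 1, 2 and 3, and 2706 with scan as a random block. The balance between higher and lower depended on the scaling, from 63.8% of calls higher when arrays were scaled to their median to 2.75% without scaling, where the median of all probes was -1.15.

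The named classes differed in direction. RefSeq probes moved mostly upward, with 25 higher and 3 lower of 112 tested (25.0% called), and 31 higher and 13 lower without CaPO4 2. Their median change was 1.0, or 0.45 without CaPO4 2, beside 0.00 and -0.07 over all probes, and 97 of the 112 were brighter on CaPO4 2 than on both CaPO4 1 and 3. Without scaling the direction turned, with 3 RefSeq probes higher and 15 lower and a median of -0.15. The 14 RefSeq genes with repeated spots had a median change of -0.24 with scaling. Of the 25 rises, 11 were of Y-linked genes and 3 of Ccl21 copies, both described further on. Members of each set share sequence, so their calls are not separate measurements. Probes of Ensembl and UCSC transcripts without a RefSeq name also moved mostly upward (22 higher and 8 lower of 112). The 2540 lincRNA probes leaned downward, with 284 higher and 380 lower. Within them, 49 humanlincRNA probes (named on the array for human lincRNAs) were higher and 81 lower of 414, with a median change of -0.38. The lean turned when arrays were scaled to their median, where 362 lincRNA probes were higher and 289 lower. Ultraconserved probes were near balance at 36 higher and 38 lower of 314, and so were cDNA clones at 73 and 82 of 645. This balance held only under some scalings, with 47 higher and 29 lower ultraconserved probes and 94 and 58 clones when arrays were scaled to their median, and 4 and 102 and 4 and 202 without scaling.

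**Figure D1:**
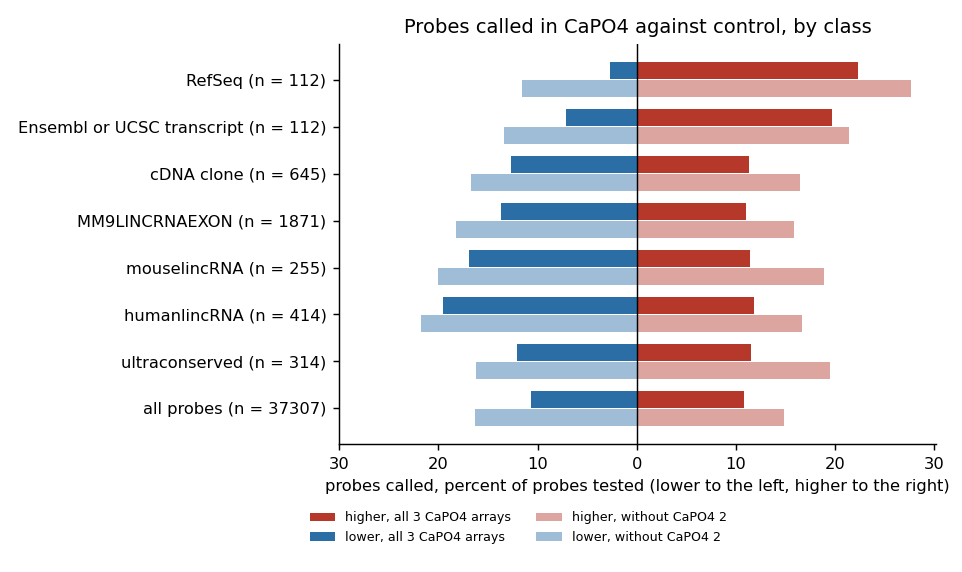
Percent of tested probes called lower (bars to the left) and higher (bars to the right) in CaPO4 against control, by class of named probe and over all 37307 probes, with all 3 CaPO4 arrays (dark) and without CaPO4 2 (pale). RefSeq probes had 25 higher and 3 lower calls of 112, with 11 of the rises Y-linked and 3 of Ccl21 copies. The noncoding classes had about as many or more lower calls.

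Many of these calls rest on probes near background. Of the 284 lincRNA probes called higher, 183 were well above background on all 3 CaPO4 arrays, and for 68 CaPO4 2 was the one CaPO4 array above it. Of the 380 called lower, 357 were above background on all 3 controls, and 149 of those on no CaPO4 array. For 36 of the 4025 probes called higher, none of the 6 arrays exceeded background, so they were tested through the naringenin arrays. With a filter on 3 of these 6 arrays, 7116 of 30681 probes were called. CaPO4 1 and 3 were the dimmest arrays before scaling, with 75th percentiles of 45.6 and 43.8 in arbitrary units against 123 to 125 on the controls. In an alternative, low levels were set to 1 level, with every level under -1.23 raised to it. This was the lowest level above background on CaPO4 3, the highest such value of the 6 arrays. Some values above background on the other arrays were therefore raised too. This alternative called 4847 probes, of them 14 RefSeq, 374 lincRNA, 48 ultraconserved and 92 cDNA clone probes. The part of dimness in the calls was not tested beyond this count.

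Genes of Ccl21, a chemokine made by lymphatic endothelium and by stroma of lymph nodes that draws cells bearing the receptor Ccr7, were 7.92- to 10.1-fold higher in CaPO4 aorta. Ccl21b had levels of 5.0, 5.01 and 4.89 on control 1 to 3 against 7.58, 9.64 and 7.69 on CaPO4 1 to 3. Ccl21c had 5.19, 5.50 and 5.53 on the control arrays against 7.70, 9.70 and 7.78 on CaPO4. Gm13304, a further copy of this chemokine gene, had 5.08, 5.12 and 5.28 against 7.75, 9.69 and 7.79. For all 3 genes the groups were far apart, with CaPO4 2 well above CaPO4 1 and 3. Changes are given as log2 ± SE with n = 3 arrays each. Here and below, the SE comes from limma's moderated spread over all 9 arrays, not from the 2 groups alone. The change was 3.34 ± 0.55 for Ccl21b (10.1-fold; adjusted p = 0.00483 by limma), 3.25 ± 0.54 for Gm13304 (9.50-fold, 0.00495) and 2.99 ± 0.53 for Ccl21c (7.92-fold, 0.00643). Without CaPO4 2 the rises were 2.67, 2.61 and 2.33. All 3 stayed called without any single array, while without scaling Ccl21c lost its call at 1.83 (adjusted p = 0.0675). Gm21953, the fourth gene of the Ccl21 list on the array, had 3.86, 3.90 and 3.87 on the control arrays against 3.71, 3.12 and 3.76 on CaPO4, a change of -0.35 ± 0.32 (adjusted p = 0.448). Of the other markers of lymphatic endothelium and lymph node stroma, Lyve1, Prox1, Pdpn, Ccl19 and Ccl21a were not among the named probes, so the part of such cells in the rise was not tested.

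The Ccl21 genes stand in near-identical copies, and a probe named for one may bind transcripts of another. No probe sequences were at hand, and bases upstream of a gene are not part of its transcript, so such binding was not tested. To show how close the copies are upstream, the 250 bases before the start of Gm13304 (chr4:42114537-42114786, plus strand) and of Ccl21a (chr4:42773992-42774241, minus strand) are given 5′ to 3′. They come from RefSeq on GRCm38.p6, with bases that have no match in the aligned other window in capitals. The same is shown for the Y-linked genes Ssty2 (chrY:67048073-67048322, minus strand) and Gm20738 (chrY:37957570-37957819, plus strand), which are described further on.
Gm13304: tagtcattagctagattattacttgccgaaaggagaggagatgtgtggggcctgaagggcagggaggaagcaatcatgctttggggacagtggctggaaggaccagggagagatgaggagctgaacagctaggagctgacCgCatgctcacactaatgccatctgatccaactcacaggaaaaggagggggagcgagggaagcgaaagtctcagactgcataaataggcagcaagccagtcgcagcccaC
Ccl21a: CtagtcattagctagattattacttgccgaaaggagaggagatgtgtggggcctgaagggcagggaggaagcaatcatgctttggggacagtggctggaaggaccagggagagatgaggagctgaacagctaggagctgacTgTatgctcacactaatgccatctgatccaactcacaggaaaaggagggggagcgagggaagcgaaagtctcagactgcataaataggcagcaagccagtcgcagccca
Ssty2: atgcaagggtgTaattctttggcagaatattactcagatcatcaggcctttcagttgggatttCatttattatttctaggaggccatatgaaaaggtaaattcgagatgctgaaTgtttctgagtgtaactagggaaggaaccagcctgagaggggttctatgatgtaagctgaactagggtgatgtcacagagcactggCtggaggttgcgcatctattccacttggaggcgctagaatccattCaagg
Gm20738: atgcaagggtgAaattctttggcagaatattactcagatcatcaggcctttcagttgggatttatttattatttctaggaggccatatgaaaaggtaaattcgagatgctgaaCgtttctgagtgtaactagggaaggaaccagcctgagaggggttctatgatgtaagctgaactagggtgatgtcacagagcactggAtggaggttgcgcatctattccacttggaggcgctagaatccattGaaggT
The windows of the Ccl21 pair differed by 4 single-base edits over 250 bases (98.4% unchanged) and those of the Y-linked pair by 6 (97.6%). These edits include window ends. The windows of Gm13304 and Ccl21a are offset by a base, which gives their end capitals. The last base of Gm20738 likewise has no partner within the Ssty2 window. The TATA box TATAAA, the CCAAT box, the GC box GGGCGG and the cAMP response element TGACGTCA were searched on both strands, and 0 matches were found in these 4 windows. These letters were in 12.4, 33.9, 32.7 and 1.55% of 32851 windows of the same length. Of 27 called RefSeq genes with a symbol, 23 had such a window in the table.

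Gusb, the lysosomal beta-glucuronidase, was 4.54-fold higher in CaPO4 aorta. Its level, averaged over 20 spots, was 1.60, 1.67 and 1.73 on the control arrays against 3.48, 4.46 and 3.59 on CaPO4 1 to 3. The groups did not overlap, and CaPO4 2 was again the highest. The rise was 2.18 ± 0.41 (limma adjusted p = 0.00795), or 1.87 without CaPO4 2 (0.00692), and it stayed called without any single array. Without scaling it was 1.03 (0.173). Gusb was the 1 gene of 11 in the lysosome list that the array named, so the other lysosomal genes could not be described.

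Of 23 Y-linked genes on the array, of multicopy families expressed in male germ cells, 22 were tested, and 11 were higher and 0 lower. Over all probes 10.8% were called higher, and of the RefSeq probes, which include these genes, 25 of 112. Those called were Gm20865, Gm20854, Gm20815, Ssty2, Gm20917, Gm20852, Gm20877, Gm20747, Gm21943, Gm20738 and Gm20806, with changes of 1.77 to 2.39. The median level of the 11 was -0.83, -0.67 and -0.67 on the control arrays against 0.81, 2.45 and 0.65 on CaPO4 1 to 3. As the 11 were picked by their calls on these arrays, this separation was fixed by the choice. The medians over all 22 genes tested were -0.79, -0.71 and -0.65 on the control arrays against 0.39, 2.32 and 0.28 on CaPO4 1 to 3. Gm20854 had -0.04, 0.00 and 0.03 on the control arrays against 1.64, 3.39 and 1.72 on CaPO4, a rise of 2.25 ± 0.50 (4.75-fold, limma adjusted p = 0.0146). Ssty2, a spermiogenesis-specific gene of the Y chromosome, had -0.60, -0.62 and -0.90 against 0.88, 2.81 and 0.65, a rise of 2.15 ± 0.57 (adjusted p = 0.0260). Gm20738, whose promoter is close to that of Ssty2, kept another order, at 1.05, 1.56 and 1.37 on the control arrays against 3.43, 2.52 and 3.40 on CaPO4. It was the one called RefSeq rise with CaPO4 2 lowest of its group, and its change of 1.79 ± 0.36 (adjusted p = 0.00959) became 2.09 without that array.

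The whole Y-linked list had a median change of 1.76, and 20 of 22 genes had a change above 0, as did at least 20 under every scaling tried. Leaving out CaPO4 2 gave a median of 1.09, and 15 genes higher and 1 lower, the last being H2al2b (-1.07, adjusted p = 0.0301), which was below background on CaPO4 1 and 3. The count of 11 fell to 1, 2 and 3 without control 1, 2 and 3, and to 1 with scan as a random block. It fell to 3 with low levels set to 1 level, and to 0 without scaling, where the median was 0.60. Gm20815 was above background on CaPO4 2 only (at least 2.52-fold higher, levels -2.80, -3.71 and -3.36 against -2.11, 0.82 and -1.54). These genes share sequence, so the 11 calls are not separate measurements. Of the germ cell markers, Ssty1 was at 1.5 ± 0.49 (adjusted p = 0.0538), and the protamine and transition protein genes Prm1, Prm2 and Tnp1 were not among the named probes. Both groups were labelled male.

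**Figure D2:**
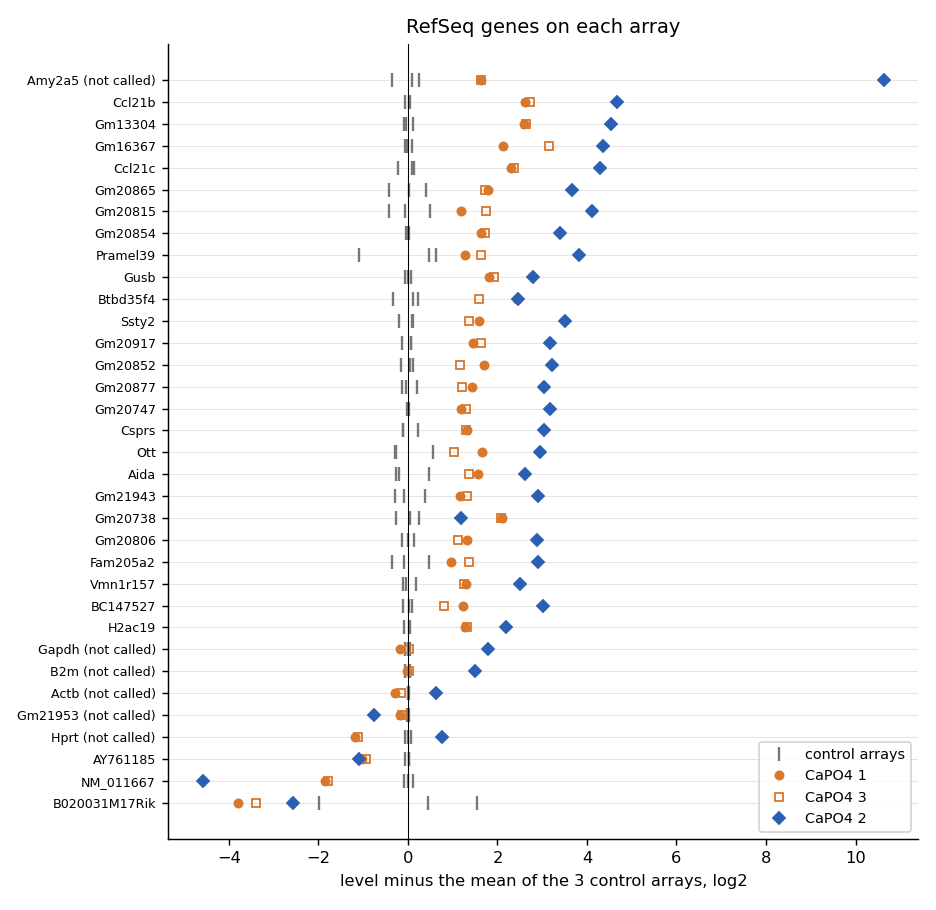
Level of each RefSeq gene on each array minus the mean of its 3 control arrays (log2, horizontal), for the 28 genes called and 6 not called, ordered by change. Grey bars are control arrays, orange symbols CaPO4 1 and 3, and blue diamonds CaPO4 2, which lies highest for 24 of the 25 rises and at 11.05 in level for Amy2a5.

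Other RefSeq rises were spread over several families. Btbd35f4, an X-linked gene of a multicopy family with a BTB domain, had levels of -2.25, -2.14 and -2.70 on the control arrays against 0.06, 0.09 and -0.78 on CaPO4. The rise was 2.16 ± 0.35 (limma adjusted p = 0.00477; at least 4.06-fold, as control 3 was not above background), and here CaPO4 1 and 2 were alike. For an "at least" fold, levels of the lower group that were below background were raised to the array's lowest level above it. Those that already exceeded this level were kept. Aida, a gene whose protein binds axin, had 0.19, 0.85 and 0.13 against 1.96, 3.00 and 1.75, a rise of 1.85 ± 0.42 (adjusted p = 0.0161), lost without control 1 (0.0655) and control 3 (0.0622). H2ac19, a histone H2A gene, had 4.64, 4.76 and 4.77 against 6.0, 6.90 and 6.03, and its rise of 1.59 ± 0.46 (0.0360) was 1.29 without CaPO4 2 (0.0573), and its call was also lost without each control or CaPO4 3 (0.0536 to 0.107). The other 3 histone genes, H2ac18, H2ac23 and H2al2b, were not called, at -0.23, -0.05 and -0.53. Of 10 Vmn1r vomeronasal receptor genes tested, Vmn1r157 alone was called (-1.27, -1.20 and -0.97 against 0.15, 1.36 and 0.10; 1.69 ± 0.40, adjusted p = 0.0188). Its call was lost without each control (up to 0.0711), and 1 of 10 is near the 10.8% called higher over all probes. All 10 had a change above 0 (4 of 10 without scaling), as had 77 of 108 RefSeq genes.

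For 5 of the 25 RefSeq rises CaPO4 2 was the one array of the 6, or of the CaPO4 group, above background. Gm16367 had -4.67, -4.52 and -4.61 on the control arrays against -2.49, -0.24 and -1.45 on CaPO4 (at least 1.84-fold higher, limma adjusted p = 0.00468). Pramel39 had -4.67, -3.11 and -2.96 against -2.29, 0.24 and -1.95 (at least 1.92-fold, 0.0420), and lost its call without CaPO4 2 (0.0594). Ott, an X-linked gene expressed in testis, had -4.57, -3.74 and -4.61 against -2.65, -1.35 and -3.28. Its change was 0.00 with low levels set to 1 level, where its CaPO4 2 value was raised too, although above background. Fam205a2 and the Y-linked Gm20815 were the other two. For these genes the calls without CaPO4 2 compare values that lay below background on nearly every array, so they show no level on CaPO4 1 and 3. Csprs (1.88 ± 0.50, at least 3.05-fold) and BC147527 (1.68 ± 0.51, at least 2.71-fold) were above background on 2 CaPO4 arrays each. Gm16367 kept its call without any single array. The others lost theirs without single controls (Gm20815, Csprs, Ott) or also without naringenin arrays (Pramel39, Fam205a2, BC147527), at adjusted p up to 0.147.

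Only 3 RefSeq genes were called lower. B020031M17Rik had 1.92, 3.04 and -0.50 on the control arrays against -2.30, -1.08 and -1.91 on CaPO4, a fall of 3.25 ± 0.75 on the log2 scale (limma adjusted p = 0.0165; at least 6.71-fold). The controls spread over more than 3 units, the groups came within 1 unit of each other, and the call was lost without control 1 (0.0649) and control 2 (0.0575). The transcript NM_011667 had 4.74, 4.54 and 4.62 on the control arrays against 2.78, 0.04 and 2.85 on CaPO4, so CaPO4 2 lay furthest from the controls. It fell by 2.74 ± 0.67 (adjusted p = 0.0202), and by 1.82 without CaPO4 2, and lost its call without each control (up to 0.0691). AY761185 had -1.08, -0.99 and -1.0 against -2.05, -2.11 and -1.96, the one fall with all CaPO4 arrays alike. It fell by 1.02 ± 0.29 (0.0332; at least 1.49-fold, 1 CaPO4 array above background), and the call was lost without any 1 array other than CaPO4 2 or naringenin 3 (0.0531 to 0.113).

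CaPO4 2 decided further calls. Amy2a5, a gene of pancreatic amylase, had 0.05, 0.50 and 0.66 on the control arrays against 2.03, 11.05 and 2.04 on CaPO4 1 to 3. The groups did not overlap, but CaPO4 2 lay 9.01 units above the mean of the other CaPO4 arrays, and the change of 4.64 ± 1.93 was not called (limma adjusted p = 0.110). Without CaPO4 2 the rise was 1.63 (0.0142). Amy2a5 was the 1 gene of 16 in the pancreatic acinar list that the array named, so other digestive enzymes were not analysed here, and the part of pancreatic tissue in CaPO4 2 was not tested. Of the secretory epithelium markers, Mucl2 was at -2.82 on CaPO4 2 against -1.03 and -1.20 on CaPO4 1 and 3, while AY761185 was alike on all 3.

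Leaving out CaPO4 2 added 18 RefSeq probes to the calls, 8 higher and 10 lower, and removed 2, H2ac19 and Pramel39. The added falls included Hmgcs1, an enzyme of cholesterol synthesis, with 6.29, 6.17 and 6.37 on the control arrays against 4.90, 6.80 and 4.95 on CaPO4. CaPO4 1 and 3 lay below every control and CaPO4 2 above them, so the change was -0.73 (limma adjusted p = 0.336) with all arrays and -1.35 (0.0192) without CaPO4 2. Tmlhe, an enzyme of carnitine synthesis, had 2.07, 2.24 and 2.19 against 0.23, 1.98 and 0.13, and fell by 1.98 without CaPO4 2 (0.00153). Hprt, Ppia, Tuba1b, Tsnax, Gm16513, Gm3286, Mucl2 and H2al2b were the other 8, with changes of -1.15 to -0.88 on CaPO4 1 and 3. The added rises were Amy2a5, NM_009268, Gm20816, Ssty1, Gm20736, Gm20822, Tcstv1 and Hhipl2. Gm20736 and Hhipl2 were above background on CaPO4 2 alone, so their calls without it rest on values below background.

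Some genes, most of them in common use as references, had 20 spots on each array. Of 14 such genes tested, Gusb alone was called. The change was 0.06 for Actb, 0.50 for B2m, 0.54 for Gapdh and -0.51 for Hprt, none of them called. Gapdh had 7.86, 7.93 and 7.97 on the control arrays against 7.73, 9.71 and 7.93 on CaPO4, so CaPO4 1 and 3 lay with the controls and CaPO4 2 apart. The median change of the 14 was -0.24, and -0.35 without CaPO4 2. Without that array Gusb was called higher and 3 of the 14 lower, Hprt, Ppia and Tuba1b. For Actb, B2m and Gapdh the sign turned under at least 1 scaling.

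The contractile smooth muscle, elastic fibre and collagen, protease, inflammation and osteochondrogenic lists, with Acta2, Eln, Mmp9, Il1b and Runx2 among them, had 0 named members on the array. Their genes may be among the design-numbered probes and were not analysed here.

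Among cDNA clones, 73 rose and 82 fell of 645 tested (24.0% called, beside 21.5% over all probes), and 69 and 75 of these held without CaPO4 2. The largest rises and falls from here on were picked among probes called both ways, above background on the whole higher group, with groups that did not overlap. AK007918 was the largest rise so picked, with levels of 0.95, 0.30 and 0.17 on the control arrays against 8.16, 11.31 and 8.13 on CaPO4. All 6 arrays were above background and the groups lay over 7 units apart. It rose by 8.73 ± 0.78 (425-fold, limma adjusted p = 0.00105), and by 7.68 without CaPO4 2. BC156060 had -4.67, -4.52 and -4.61 on the controls, all below background, and 0.80, 6.05 and 0.79 on CaPO4, at least 28.2-fold higher (0.00457). CaPO4 1 and 3 lay together and CaPO4 2 over 5 units above them, and with low levels set to 1 level the call was lost (0.150). CK378914 was at least 7.04-fold higher (0.000586) and was even across the group, at 0.75, 0.06 and 0.81 on CaPO4 against -4.67, -4.34 and -4.61. BB649909 (at least 8.20-fold) and AK139572 (at least 2.60-fold) were the other large rises.

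The largest fall of a cDNA clone so picked was DV074327, with 6.19, 6.45 and 6.23 on the control arrays against 3.97, 0.37 and 3.99 on CaPO4. It fell by 3.51 ± 0.87 (limma adjusted p = 0.0208), and by 2.31 without CaPO4 2, which lay over 3 units below CaPO4 1 and 3. BY307613 had the same pattern, at 2.88, 2.56 and 2.52 against 0.53, -2.49 and 0.78 (-3.05 ± 0.79, and -2.00 without CaPO4 2). DT924415, CN671138 and AK045672 were above background on all controls and on no CaPO4 array, at least 1.81-, 2.37- and 1.49-fold lower. Calls of DV074327 and BY307613 were lost without each single control (adjusted p up to 0.0699 and 0.0811), that of AK139572 without control 2 (0.0535), and those of the other 7 clones were kept without any single array. Keeping the call without CaPO4 2 was part of how the clones were picked. With another background correction (normexp), 6 of the 10 clones kept their call. BC156060, DT924415, CN671138 and AK045672 lost it.

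Among the MM9LINCRNAEXON probes (named for exons of mouse lincRNAs), 206 rose and 256 fell of 1871 tested (24.7% called, beside 21.5% over all probes). MM9LINCRNAEXON11881- was the brightest of the large rises, with 3.90, 4.04 and 3.88 on the control arrays against 6.57, 8.49 and 6.57 on CaPO4, a rise of 3.26 ± 0.59 (9.61-fold, limma adjusted p = 0.00686). MM9LINCRNAEXON10161+ was below background on the controls (-2.82, -2.26 and -3.98) and at 0.39, 0.63 and 0.36 on CaPO4, at least 6.67-fold higher (0.00232) with the 3 CaPO4 arrays alike. MM9LINCRNAEXON10761- rose by 3.12 ± 0.39 (8.68-fold). MM9LINCRNAEXON12060+ and MM9LINCRNAEXON10248+ went with CaPO4 1 and 3 more than with CaPO4 2. The first had -4.32, -3.35 and -3.54 on the control arrays against 0.71, -2.44 and 0.51 on CaPO4, so CaPO4 2 lay over 3 units below the other CaPO4 arrays. No control was above background, and the probe was at least 3.65-fold higher. Its call was lost without control 1 (adjusted p = 0.0559), and that of MM9LINCRNAEXON10248+ without control 2 or 3 or CaPO4 3 (up to 0.0790).

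The falls were led by MM9LINCRNAEXON11466+, with 6.28, 6.22 and 6.24 on the control arrays against 3.22, -0.45 and 3.18 on CaPO4. The controls lay within 0.1 of each other, CaPO4 1 and 3 about 3 units lower, and CaPO4 2 lower still. It fell by 4.26 ± 0.85 (19.2-fold, limma adjusted p = 0.00959), and by 3.04 without CaPO4 2. MM9LINCRNAEXON10387- had 5.83, 5.72 and 5.77 against 2.95, -0.56 and 3.63 (-3.77, and -2.48 without CaPO4 2), and MM9LINCRNAEXON11171+, below background on CaPO4 2, was at least 10.8-fold lower, with a change of -2.75 without that array. MM9LINCRNAEXON10064+ had a change of -3.75, and MM9LINCRNAEXON10538+ was at least 11.6-fold lower. In all 5 falls CaPO4 2 was the lowest array. Calls of MM9LINCRNAEXON10387- and MM9LINCRNAEXON11171+ were lost without each control (adjusted p up to 0.0699 and 0.0962), and that of MM9LINCRNAEXON10064+ without control 1 or 2 (up to 0.0517).

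Of 255 mouselincRNA probes, 29 rose and 43 fell (28.2% called, beside 21.5% over all probes). mouselincRNA0413+ had -1.17, -1.61 and -1.37 on the control arrays against 0.86, 0.44 and 1.02 on CaPO4 (2.16 ± 0.30, limma adjusted p = 0.00314). mouselincRNA0892- was below background on the controls and at -0.73, -0.80 and -1.11 on CaPO4, at least 2.63-fold higher. mouselincRNA0499+ was bright, with 7.81, 7.81 and 7.71 on the control arrays against 5.10, 2.61 and 5.0 on CaPO4. It fell by 3.54 ± 0.59 (11.6-fold, 0.00509), and by 2.72 without CaPO4 2. mouselincRNA0522- fell by 3.74 and mouselincRNA0970- by 3.12, both with CaPO4 2 the lowest array, and the call of mouselincRNA0970- was lost without each control (up to 0.0623).

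Among humanlincRNA probes the rises were led by humanlincRNA2253-, at -3.28, -3.42 and -3.58 on the controls, all below background, and 0.91, -0.85 and 0.77 on CaPO4, at least 5.86-fold higher (limma adjusted p = 0.00237). humanlincRNA1929- was above background throughout, with -0.93, -1.33 and -1.26 against 1.45, 2.18 and 1.28 (2.81 ± 0.34, 7.02-fold). humanlincRNA2237+ rose by 2.91 ± 0.43. humanlincRNA2161- had 3.93, 3.75 and 3.94 against 1.42, -1.29 and 1.31 and fell by 3.39 ± 0.63 (0.00753). humanlincRNA0318+ had 7.33, 7.51 and 7.70 against 6.03, 1.65 and 5.39, and its fall of 3.16 was 1.81 without CaPO4 2. It lost its call without each control and each naringenin array (adjusted p = 0.0553 to 0.103). Of the 30 lincRNA elements that headed the rises and falls, 22 kept their call without any single array, which for CaPO4 2 was fixed by how they were picked. With low levels set to 1 level, 18 kept it, and with normexp 28.

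**Figure D3:**
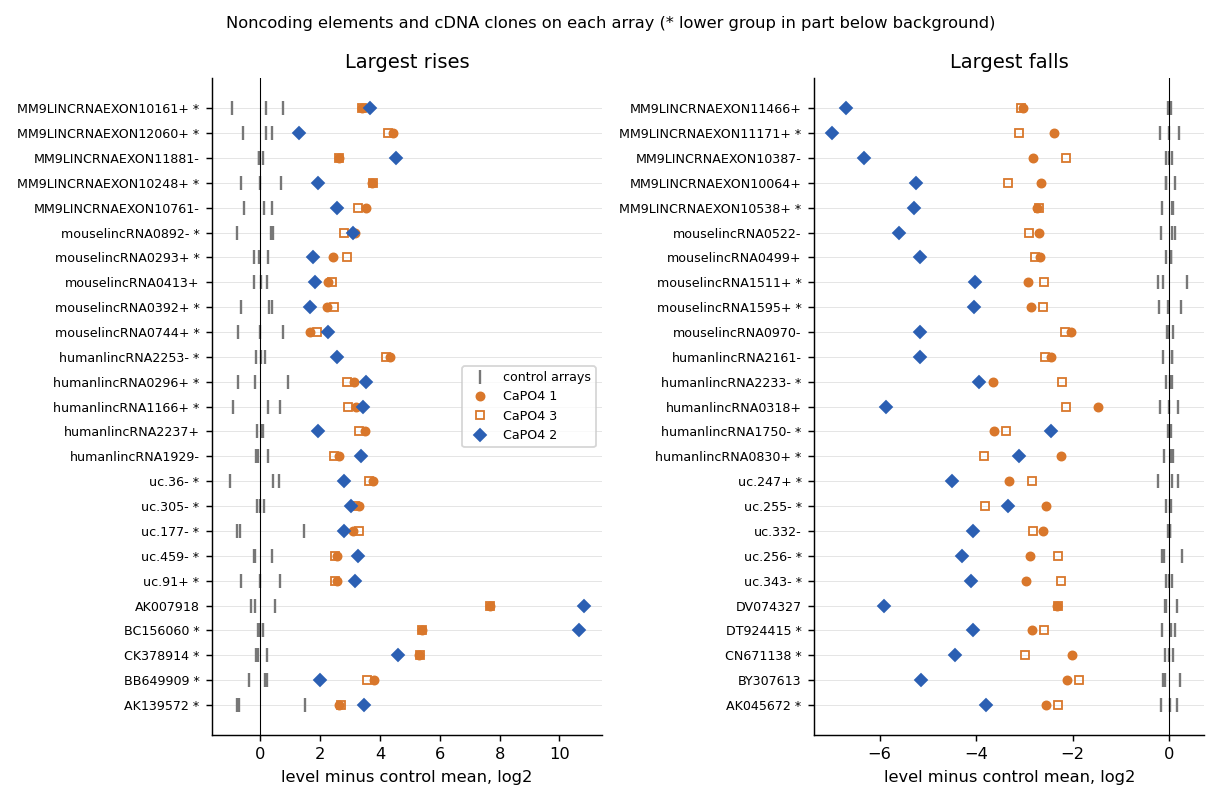
Level on each array minus the control mean (log2, horizontal) for the 5 largest rises (left) and 5 largest falls (right) of each noncoding class and of cDNA clones. They were picked among probes called both ways, above background on the whole higher group, with groups that did not overlap. Grey bars are control arrays, orange symbols CaPO4 1 and 3, blue diamonds CaPO4 2, and an asterisk marks elements whose lower group lay in part below background. CaPO4 2 lies furthest from the controls for most falls but not for most rises.

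Ultraconserved elements changed in both directions, 36 higher and 38 lower of 314 (23.6% called, beside 21.5% over all probes), with 61 and 51 without CaPO4 2. The 5 leading rises started from controls that were all below background. uc.305- had -3.41, -3.32 and -3.17 on the control arrays against 0.01, -0.28 and -0.14 on CaPO4, at least 4.4-fold higher (limma adjusted p = 0.00131). uc.459- had -2.41, -2.97 and -3.00 against -0.22, 0.47 and -0.31 (at least 4.78-fold). Among the falls, uc.332- was the one above background on all 6 arrays, with 2.36, 2.37 and 2.33 on the control arrays against -0.26, -1.72 and -0.46 on CaPO4, a fall of 3.17 ± 0.50 (8.97-fold, 0.00425). uc.255- had 1.67, 1.78 and 1.74 against -0.83, -1.61 and -2.09 (at least 7.74-fold lower), and its CaPO4 arrays had another order, with CaPO4 3 lowest. uc.256- was at least 5.79-fold lower. All 10 elements of this rule kept their call without any single array, which for CaPO4 2 was part of the rule. With low levels set to 1 level, 7 kept it, and with normexp 8.

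Many lincRNA and ultraconserved elements had a probe for each strand, and both strands were tested for 525 MM9LINCRNAEXON, 82 humanlincRNA, 45 mouselincRNA and 60 ultraconserved elements. Of these 712 elements, both strands were called in the same direction for 18 and in opposite directions for 18. In the same order of classes, only 1 strand was called for 200, 36, 21 and 20 elements. Neither strand was called for 300, 39, 23 and 37. Over all probes tested, 10.8% were called higher and 10.7% lower, and whether the 18 exceed what unrelated strands would give was not tested. The opposite calls were 11 MM9LINCRNAEXON, 4 humanlincRNA and 3 ultraconserved elements, and 17 of the 18 held without CaPO4 2. uc.300 had plus-strand levels of 2.05, 1.82 and 2.32 on the control arrays against -1.08, -1.61 and 0.57 on CaPO4, a fall of 2.77 (limma adjusted p = 0.0212). Its minus-strand probe was below background on the controls and at -1.41, -1.55 and -2.40 on CaPO4, at least 1.40-fold higher (0.00231). For uc.177 the plus strand was at least 1.28-fold lower (-1.48, -1.51 and -1.40 on the controls, no CaPO4 array above background), while the minus strand was at least 2.85-fold higher. uc.34 fell by 2.37 on the plus strand (2.62, 2.70 and 2.57 against -0.18, 1.22 and -0.26), and its minus strand, above background on CaPO4 2 alone, was at least 1.42-fold higher.

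MM9LINCRNAEXON10333 was bright on its plus strand, with 4.62, 4.53 and 4.39 on the control arrays against 6.14, 5.48 and 6.2 on CaPO4, a rise of 1.43 ± 0.42 (limma adjusted p = 0.0369). Its minus strand had 0.92, 0.90 and 0.87 against -1.90, -4.34 and -1.10 and was at least 6.35-fold lower (0.0141). MM9LINCRNAEXON11061 was at least 2.52-fold lower on the plus strand, and its minus strand was above background on CaPO4 2 alone and at least 2.09-fold higher. humanlincRNA0289 was at least 5.34-fold lower on the plus strand and at least 1.82-fold higher on the minus strand. In each of these 6 pairs at least 1 strand was in part below background, and the names do not say which strand a transcript comes from.

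**Figure D4:**
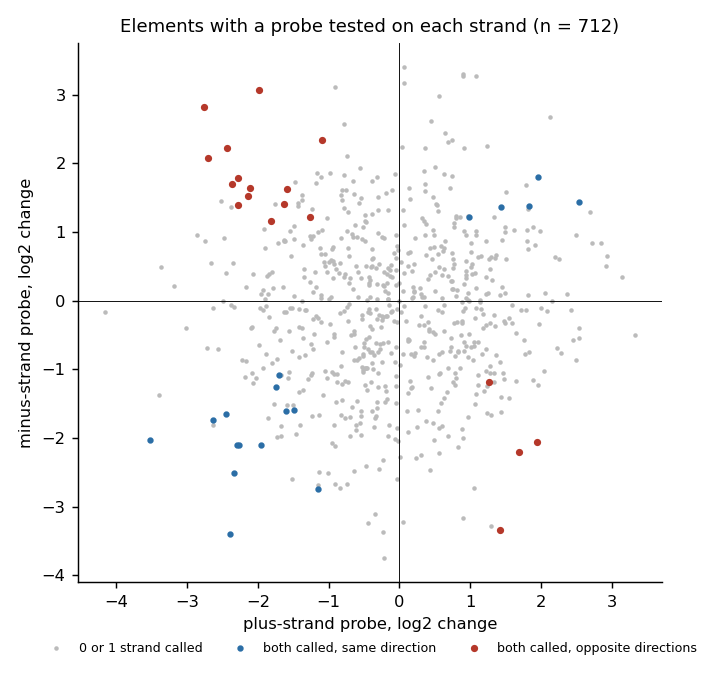
Log2 change of the plus-strand probe (horizontal) against that of the minus-strand probe (vertical) for the 712 lincRNA and ultraconserved elements tested on both strands. Blue points are the 18 elements called in the same direction on both strands and red points the 18 called in opposite directions.

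CaPO4 2 differed from CaPO4 1 and 3 by far more than those differed from each other. The median absolute difference between CaPO4 1 and 3 was 0.136 for RefSeq, 0.242 for lincRNA, 0.242 for ultraconserved and 0.239 for cDNA clone probes. From the mean of those arrays, CaPO4 2 lay a median of 1.79, 0.844, 0.835 and 1.08 away. It was the highest CaPO4 array for 24 of 25 RefSeq rises, 135 of 284 lincRNA rises, 17 of 36 ultraconserved rises and 52 of 73 cDNA clone rises. It was the lowest for 247 of 380 lincRNA falls, 26 of 38 ultraconserved falls and 52 of 82 cDNA clone falls.

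Outside the RefSeq genes, probes on which CaPO4 2 lay furthest from its group were taken from those above background on all 6 arrays. humanlincRNA0965+ had 4.62, 4.80 and 4.89 on the control arrays against 5.47, 0.53 and 5.32 on CaPO4. MM9LINCRNAEXON11792+ was among them at 9.71, 9.79 and 9.75 on the control arrays against 9.23, 4.75 and 9.18 on CaPO4. For both, CaPO4 1 and 3 lay within 1 unit of the controls and CaPO4 2 over 4 units lower. mouselincRNA0712- had 2.61, 2.31 and 2.26 against 4.62, -0.08 and 4.51, so CaPO4 1 and 3 lay above and CaPO4 2 below the controls, and the change of 0.63 became 2.18 without CaPO4 2 (limma adjusted p = 0.684 and 0.000883). MM9LINCRNAEXON10169- and mouselincRNA0424- had the same order, and were called higher only without CaPO4 2. The clone BU961149 went from 0.46 to 1.93. humanlincRNA0671+ went the other way, with 1.38, 1.43 and 1.31 on the control arrays against 1.90, 6.18 and 2.16 on CaPO4, and was not called in either fit.

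**Figure D5:**
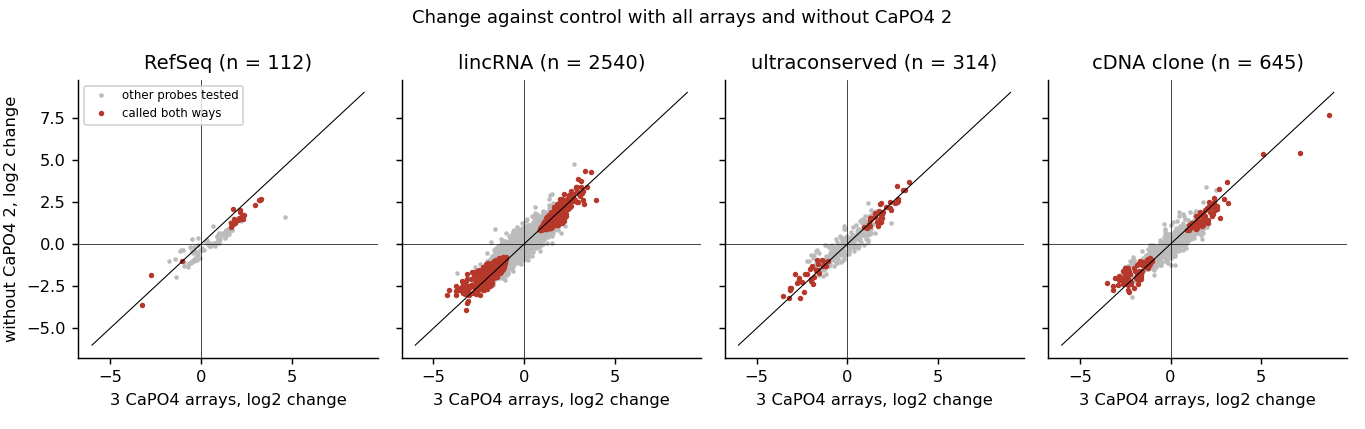
Log2 change of CaPO4 against control with all 3 CaPO4 arrays (horizontal) and without CaPO4 2 (vertical), 1 panel per class, with the line of equality. Red points are probes called in the same direction both ways, which were 26 of 112 RefSeq, 614 of 2540 lincRNA, 70 of 314 ultraconserved and 144 of 645 cDNA clone probes.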

How the data were processed

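RNA of 9 aorta samples was freed of rRNA, amplified by random priming, labelled with Cy3 and hybridised to 1-colour Agilent arrays, per the labels' protocols. The arrays were read with Agilent Feature Extraction 11.0.1.1, per the submitters' processing notes. The authors' deposited table held background-subtracted intensity, equal to the scanner's processed signal within 0.0999%, so that no scaling between arrays had been applied. Here each column was divided by its 75th percentile over non-control spots and taken to log2. Outlier spots were dropped, repeated spots averaged, and probes kept if well above background on at least 3 of 9 arrays. Group means over all 9 arrays were fitted in limma 3.58.1 (R 4.3.3), with Benjamini-Hochberg adjustment over 37307 probes, where an adjusted p below 0.05 was a call, with and without CaPO4 2. The scripts were tested on simulated data. Background correction by normexp, an alternative, used median signals, since mean signals were not in the scanner columns used here.

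Named were the called RefSeq genes, the members of gene lists and the strand pairs of largest difference. Named too were the 5 largest rises and falls of each noncoding class and of cDNA clones. These came from probes called both ways, with the higher group above background and groups that did not overlap. The 3 probes of each class with CaPO4 2 furthest off were added. Members and lists were chosen with earlier results of these data known. Alternatives covered scaling, background, filters, single arrays, the replicate block, scan and values below background. Gene symbols came from RefSeq tables, and promoters from RefSeq on GRCm38.p6. The array's annotation was to mm9, and no array coordinates were used.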

Additional observations from a re-analysis of the deposited data

How the results depend on the processing

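Counts of called probes are given in the order all, RefSeq, lincRNA, ultraconserved and cDNA clone (8015, 28, 664, 74 and 155 as reported). Leaving out 1 array at a time gave 2751 to 11638, 7 to 44, 272 to 895, 31 to 112 and 50 to 214, the low ends without a control and the high ends without CaPO4 2. A filter on all 6 arrays, which tests fewer probes, gave 3660, 17, 252, 22 and 69. Scan as a random block gave 2706, 7, 266, 29 and 48. The 6 arrays fitted alone without CaPO4 2 gave 18597, 68, 1321, 147 and 344, and with it 15 RefSeq probes. No scaling gave 18 RefSeq probes. Alternatives chosen after seeing the data gave, with low levels set to 1 level, 4847, 14, 374, 48 and 92. Without CaPO4 2 and naringenin 3 they gave 19615, 74, 1366, 150 and 364. With near-identical arrays averaged they gave 0, 0, 0, 0 and 0 (9003, 41, 713, 79 and 184 at an unadjusted limma p under 0.05). The cause of these shifts was not tested.

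The replicate numbers did not pair the samples (correlations of same-numbered deviations 0.04, -0.02 and -0.02), and a replicate block gave 7498, 30, 611, 70 and 146 calls. The share of calls that were higher, 50.2% as reported, was 63.8% with median scaling, 32.4% with the percentile over detected probes, 2.75% without scaling and 59.5% with normexp. The alternatives not named here stayed within 1.5 times each count.

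Of the 8015 calls, 340 changed sign without scaling and 486 with normexp. With low levels set to 1 level, 629 changed sign or became 0, which were not counted apart. In these settings 0 were called the opposite way. With normexp, 18 of the 28 called RefSeq genes kept their call. Among named genes and elements, those with a turned sign were not called with all arrays. Tfrc became 0.13 with median scaling and 0.30 with near-identical arrays averaged, and ranged from -0.81 to 0.35 without single arrays (0.32 without CaPO4 3, 0.016 without control 3). Nono became 0.048 with median scaling and ranged from -0.41 to 0.36, the latter without CaPO4 2. B2m became -0.65, -0.094 and -0.0043 with no scaling, quantile normalization and normexp, and Gapdh -0.62, -0.087 and -0.013, ranging from -0.087 (without CaPO4 2) to 0.90. Actb became -0.33, -1.10, -0.60 and -0.45 with the detected percentile, no scaling, quantile and normexp and -0.017 with scan as a random block, and ranged from -0.23 (without CaPO4 2) to 0.23. NM_009268 became -0.46 and -0.030 with no scaling and quantile normalization, and H2al2b 0.29 with normexp. Precision is limited by 3 arrays per group and by the many probes near background.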
